A study of Homo sapiens with 34 samples.

Results

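ID1, ID2, ID3, ID4, SMAD6, SMAD7, BAMBI, MSX1 and MSX2 are genes long known to respond to bone morphogenetic protein (BMP) signaling. They were chosen by name, and each of the 9 was found under 1 identifier among the 37951 identifiers listed. Their RNA was measured in 34 bulk RNA sequencing libraries of wild-type ESI017, an established line of human embryonic stem cells. There were 17 conditions, each with 2 biological replicates. The control was kept undifferentiated in mTeSR PLUS; its labels give 48 h. On day 1, cells were taken for 24 h to populations of the primitive streak (PS) by 4 media. DE(a) medium held 100 ng/ml activin and the Wnt agonist CHIR at 2 µM. The anterior PS (APS) medium held activin at 30 ng/ml, bFGF at 20 ng/ml and CHIR at 4 µM. The mid PS (MPS) medium held 40 ng/ml BMP4 and 6 µM CHIR beside the same activin and bFGF. The posterior PS (PPS) medium was the MPS medium without activin. On day 2, each population was moved for the rest of 48 h to definitive endoderm medium DE(b), paraxial mesoderm (PM) medium or lateral mesoderm (LM) medium. DE(b) held 100 ng/ml activin and 250 nM of the BMP receptor inhibitor LDN. PM held 250 nM LDN, 20 ng/ml bFGF and the activin receptor inhibitor A8301 at 1 µM. The methods list no CHIR for PM, but elsewhere the paper describes PM treatment with CHIR and Wnt activation in PM on day 2. LM combined BMP4 at 30 ng/ml with A8301 at 1 µM and the Wnt secretion inhibitor IWP2 at 4 µM. The day 1 media with BMP4 also held the most CHIR, and LM differs from DE(b) and PM in several agents, so that single agents cannot be told apart. All conditions come from 1 cell line.

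BMP ligands bind receptor kinases that phosphorylate SMAD1, SMAD5 and SMAD9, which enter the nucleus with SMAD4 and act at target genes. The 4 ID genes encode helix-loop-helix proteins without a DNA-binding region, which bind E proteins and keep them off DNA. SMAD6 and SMAD7 are inhibitory SMADs that restrain BMP receptors, and SMAD7 also restrains activin and TGFβ receptors and is induced by those ligands. BAMBI is a membrane protein that resembles a receptor but lacks a kinase. MSX1 and MSX2 are homeodomain transcription factors. In the embryo, BMP signaling is strongest in the posterior PS and in the lateral mesoderm and amnion that lie next to it.

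Some of these genes carry, near their start sites, sequences of the kind that BMP SMADs are known to bind, and these are shown to let a reader see the regulatory DNA of the genes whose levels follow. The composite element joins a GC-rich SMAD1 or SMAD5 site, GNCGNC, across 5 bases of any kind to the SMAD4 site GTCT, where N is any base. It was searched on both strands of hg38 in the 2000 bases before the canonical start site. It was found for 3 of the 9 members, ID1, ID3 and SMAD6, and for 499 of 20045 protein-coding genes (2.49%). The matches lie 911, 506 and 23 bases before the start sites. All are outside annotated UTRs, at chr20:31604348-31604422 (+ strand), chr1:23559963-23560037 (- strand) and chr15:66702183-66702235 (+ strand), and capitals mark the element.
ID1: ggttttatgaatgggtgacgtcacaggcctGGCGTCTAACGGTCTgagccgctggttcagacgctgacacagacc
ID3: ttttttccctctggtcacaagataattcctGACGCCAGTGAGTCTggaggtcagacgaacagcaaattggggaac
SMAD6: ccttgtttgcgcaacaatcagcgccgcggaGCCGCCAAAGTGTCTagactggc
In SMAD6 the palindrome GTCTAGAC overlaps the end of the element, a match found in 0.202% of 35116 RefSeq promoters of 300 bases. The other 6 members had no match in this window, which says only that these letters are absent there.

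BAMBI is shown for a denser arrangement. Its RefSeq promoter (GRCh38.p14, chr10:28677301-28677390, + strand) holds 3 copies of GGCGCC, marked in capitals together with CAGAC and its reverse complement GTCTG.
BAMBI: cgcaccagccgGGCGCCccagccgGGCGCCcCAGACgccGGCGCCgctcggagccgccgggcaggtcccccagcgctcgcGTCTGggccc
At least 1 GGCGCC occurs in 19.2% of RefSeq promoters and 3 or more in 0.871%, while CAGAC occurs in 45.3%. No binding was measured, and a match is a description of the sequence only.

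The genes lie on separate chromosomes of GRCh38 (GENCODE v44). ID1 (ENSG00000125968) spans chr20:31605283-31606515, ID2 (ENSG00000115738) chr2:8678845-8684461, ID3 (ENSG00000117318) chr1:23557926-23559501 and ID4 (ENSG00000172201) chr6:19837370-19842197. SMAD6 (ENSG00000137834) spans chr15:66702236-66782849, SMAD7 (ENSG00000101665) chr18:48919853-48950965 and BAMBI (ENSG00000095739) chr10:28677510-28682932. MSX1 (ENSG00000163132) lies at chr4:4859665-4863936 and MSX2 (ENSG00000120149) at chr5:174724582-174730896.

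Library totals ranged from 15522780 to 23439799 estimated counts with a median of 19341117. Levels are CPM, counts scaled to the library total, which depend on gene length and are compared within a gene unless given per kilobase of the canonical transcript. All 9 members passed the filter on low counts. Differences were tested in 1 edgeR quasi-likelihood fit of all 34 libraries, with p-values adjusted over 17895 genes. A member is said to be called, or to pass, where its adjusted p was under 0.05. Each log2 fold change is followed by its standard error (SE). Marker genes were checked against the labels. Summed levels of TBX6, MSGN1 and DLL1 were 339 to 494 CPM in PM and at most 194 CPM elsewhere. Those of HAND1, FOXF1, HAND2 and GATA4 were 509 to 2412 CPM in LM and at most 329 CPM elsewhere. SOX17, FOXA2 and CXCR4 summed to 427 to 722 CPM in DE(b) after DE(a), APS or MPS. After PPS the sum was only 124 and 252 CPM, where the PM libraries had 234 to 335 CPM. The paper, however, reports little FOXA2 RNA in DE(b) after MPS as well as after PPS, and concludes that such cells lose endoderm potential. The sum cannot show this for MPS, since it counts FOXA2 together with SOX17 and CXCR4. In these bulk libraries, fewer cells expressing a gene and less RNA per cell cannot be told apart.

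**Figure D1:**
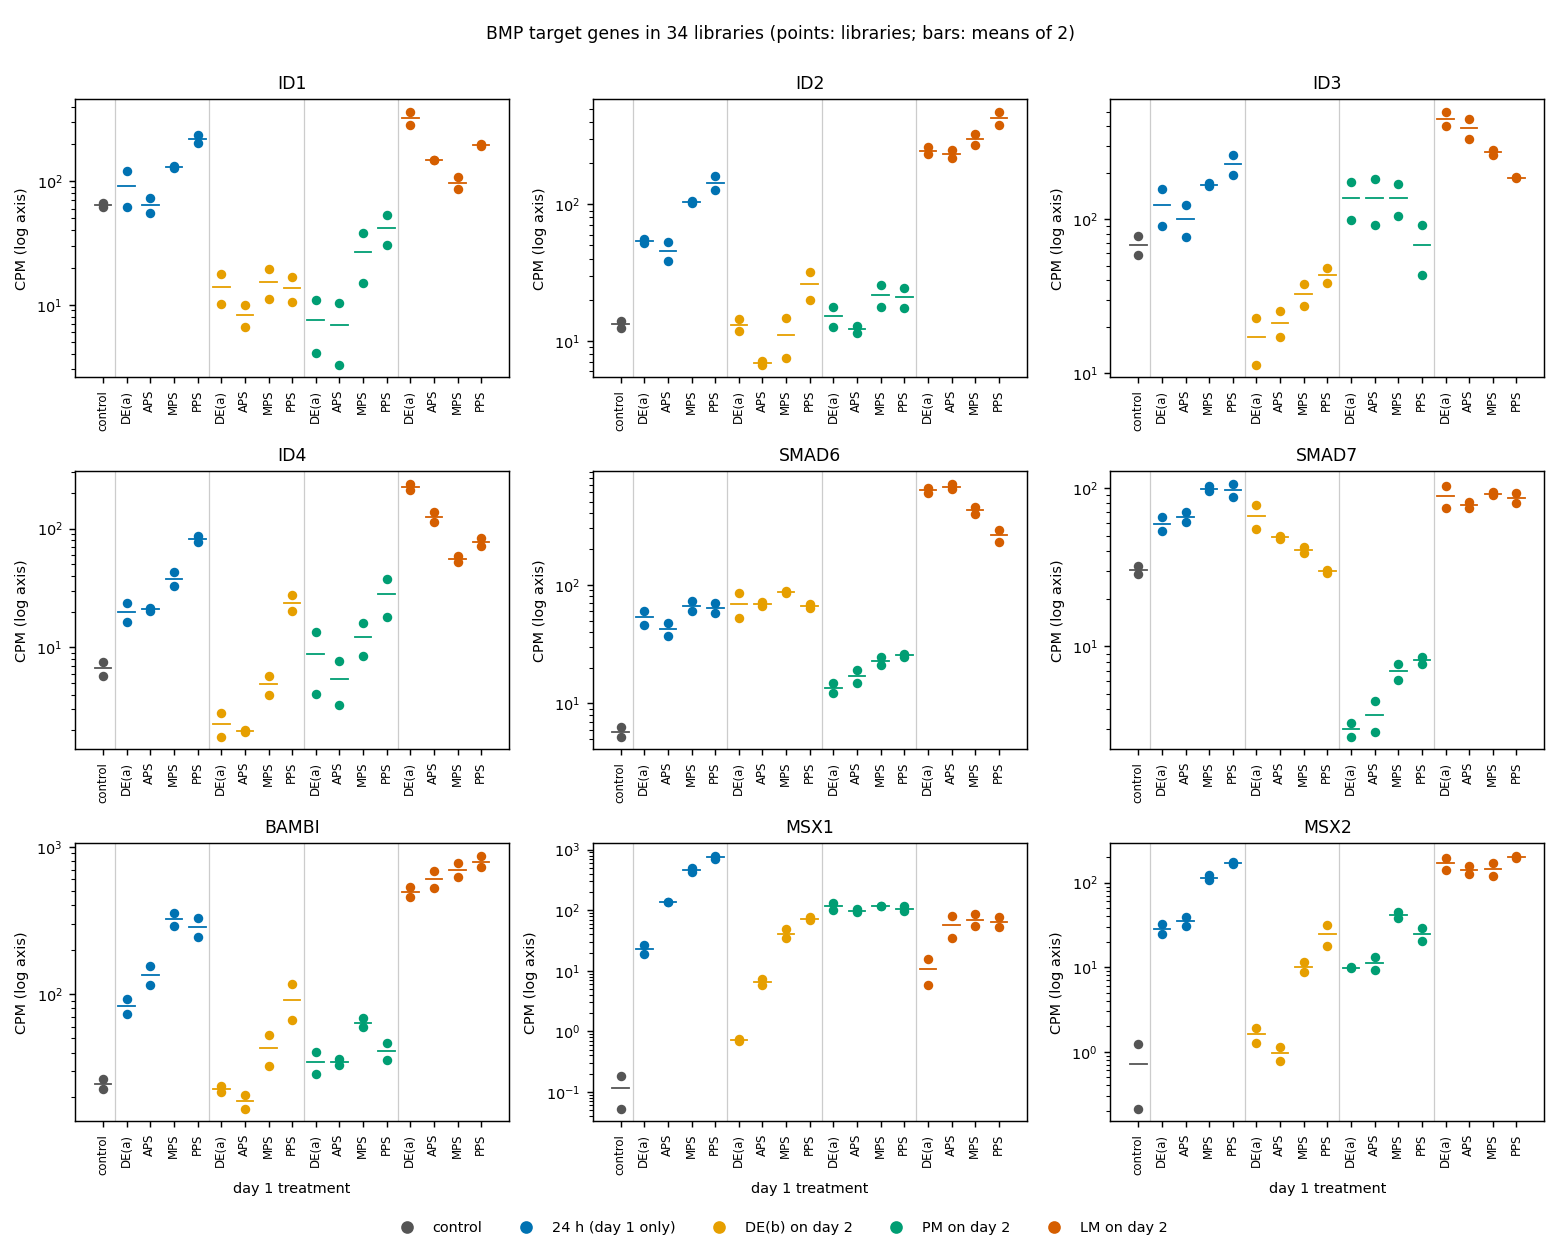
CPM of each gene in every library on a log axis, by day 1 treatment and colored by medium; points are libraries and bars the means of 2. LM libraries are highest for ID2, SMAD6 and BAMBI, SMAD7 is lowest in PM, and MSX1 is highest at 24 h.

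In undifferentiated cells the members ranged from abundant to nearly silent. Per kilobase, ID3 (71.8 ± 14.7 CPM per kb, SD, n = 2) and ID1 (65.5 ± 2.81 CPM per kb) were the highest, and the other 7 were at or below 14.5 CPM per kb. MSX1 had 5 counts in the 2 control libraries together and MSX2 had 31. SMAD6 stood at 6.34 and 5.27 CPM, SMAD7 at 32.1 and 28.8 CPM and BAMBI at 26.5 and 22.7 CPM.

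At 24 h most members were above control in all 4 PS populations, also in those given no BMP4. In DE(a)-24h, 7 of 9 members were higher than control and 0 lower, where 10.3% of all genes were called higher, 8.68% lower and 19.0% in either direction. The count was 7 of 9 in APS-24h (13.6% of all genes higher, 11.0% lower, 24.5% either way), 8 of 9 in MPS-24h (16.5%, 13.4% and 30.0%) and 9 of 9 in PPS-24h (16.4%, 13.4% and 29.8%). In each of these comparisons 0 members were called lower. The median log2 difference of the members from control was 1.86 in DE(a), 1.87 in APS, 3.06 in MPS and 3.48 in PPS, while the median over all genes lay between 0 and 0.03. In every 24 h library 7 members stood above both control libraries, all but ID1 and ID3, where 14.1% of the 14647 genes that average 1 CPM or more did so.

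MSX1 and MSX2 showed the largest differences of the members from control. MSX1 stood at 0.181 and 0.0532 CPM in control, 19.1 and 26.6 CPM in DE(a)-24h, 136 and 136 CPM in APS-24h, 430.5 and 506 CPM in MPS-24h and 712 and 783 CPM in PPS-24h. The levels did not overlap between any of these groups. The ratio of CPM to control was 187 in DE(a)-24h (exact 95% interval 79.7 to 577, counting error only) and 6097 in PPS-24h (2612 to 18779). MSX2 stood at 1.22 and 0.213 CPM in control, 32.2 and 24.7 CPM in DE(a)-24h and 177 and 167 CPM in PPS-24h. Its ratio to control was 37.7 (26.4 to 55.7) in DE(a)-24h and 228 (160 to 336) in PPS-24h. These intervals leave out the spread between the control libraries, which held 27 and 4 counts of MSX2. Without control replicate 2 or control replicate 1, the fitted log2 difference of MSX2 was 4.63 or 7.10 in DE(a)-24h and 7.16 or 9.63 in PPS-24h, and that of MSX1 was 7.03 or 8.67 and 11.99 or 13.62.

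The ID genes differed less from control. ID2 stood at 14.0 and 12.5 CPM in control, 52.2 and 56.0 CPM in DE(a)-24h, 102 and 105 CPM in MPS-24h and 159.8 and 127 CPM in PPS-24h. ID4 stood at 7.59 and 5.77 CPM in control and rose in all 4 populations, to 87.0 and 77.0 CPM in PPS-24h. ID1 stood at 66.3 and 62.4 CPM in control, 121 and 62.5 CPM in DE(a)-24h, 129 and 134 CPM in MPS-24h and 236 and 202 CPM in PPS-24h. It passed in PPS (log2 difference 1.79 ± 0.47, edgeR adjusted p = 0.00573) and not in MPS (1.13 ± 0.46, 0.071), where 3 of 9 alternatives called it, and PPS against MPS did not pass (0.66 ± 0.46, 0.446). For ID1 the control libraries overlapped those of APS-24h and of DE(a)-24h. Without the control library of replicate 2, the call of ID1 in PPS-24h was lost (edgeR adjusted p = 0.051), as were those of ID3 in MPS-24h (0.104) and of ID4 in DE(a)-24h (0.09) and APS-24h (0.0628). The call of ID4 in DE(a)-24h was also lost without DE(a)-24h replicate 1 (0.0809) and that of ID3 in MPS-24h without MPS-24h replicate 1 (0.0513).

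The inhibitors rose in all 4 populations. SMAD6 was at 60.6 and 46.0 CPM in DE(a)-24h, 36.9 and 47.7 CPM in APS-24h, 60.2 and 73.6 CPM in MPS-24h and 57.4 and 70.2 CPM in PPS-24h. The log2 difference from control was between 2.95 ± 0.23 (APS) and 3.62 ± 0.24 (MPS), with edgeR adjusted p of at most 3.41e-09. SMAD7 rose by between 1.05 ± 0.20 (DE(a)) and 1.79 ± 0.20 (MPS) on the log2 scale. BAMBI stood at 93.2 and 73.4 CPM in DE(a)-24h, 154 and 114 CPM in APS-24h, 353 and 289.9 CPM in MPS-24h and 329 and 246 CPM in PPS-24h.

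Neighboring day 1 media were compared next. Between APS and DE(a), neither of which holds BMP4, 1 member was called, MSX1, higher in APS by 2.56 ± 0.38 (edgeR adjusted p = 0.000774), where 0.609% of all genes were higher and 0.732% called either way. That call was lost without DE(a)-24h replicate 1 (edgeR adjusted p = 0.0636). Between MPS and APS, where MPS adds BMP4 and raises CHIR from 4 to 6 µM, 4 members were higher, ID2, BAMBI, MSX1 and MSX2, and 0 lower, against 1.89% of all genes higher, 1.03% lower and 2.93% called in either direction. These were 1.20 ± 0.26, 1.28 ± 0.27, 1.80 ± 0.37 and 1.73 ± 0.32 on the log2 scale, with edgeR adjusted p of 0.0102, 0.0082, 0.00637 and 0.00271. ID1, ID3, ID4, SMAD6 and SMAD7 had log2 differences between 0.60 and 1.04 that did not pass. Without APS-24h replicate 2, 0 members were called, at edgeR adjusted p of 0.201 for ID2, 0.168 for BAMBI, 0.0841 for MSX1 and 0.078 for MSX2. Without MPS-24h replicate 1, 2 were called, MSX1 and MSX2. ID2 was also lost without MPS-24h replicate 2 (0.0602) and MSX1 without APS-24h replicate 1 (0.0765).

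Leaving activin out of the MPS medium, as in PPS, gave no call among the members. The count was 0 of 9 by edgeR and by DESeq2, against 6.14% of all genes called, 2.79% higher and 3.35% lower. Nearest to passing was ID4, at 32.9 and 43.2 CPM in MPS-24h and 87.0 and 77.0 CPM in PPS-24h (log2 difference 1.04 ± 0.40, edgeR adjusted p = 0.14). With no filter on low counts 3 members were called, ID1, ID4 and MSX1. In the same comparison 6 of 7 genes of the activin and Nodal response (LEFTY1, LEFTY2, NODAL, CER1, GSC, SKIL and PMEPA1) were lower in PPS.

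A further contrast set MPS and PPS, the media with BMP4, against DE(a) and APS. At 24 h all 9 members were higher, against 10.2% of all genes higher, 9.28% lower and 19.4% called in either direction. The median log2 difference of the members was 1.26, against 0.00 over all genes. MSX1 led with 3.38 ± 0.28, followed by MSX2 with 2.13 ± 0.23, BAMBI with 1.50 ± 0.19 and ID4 with 1.42 ± 0.29. ID2 (1.26 ± 0.18), ID1 (1.11 ± 0.33) and ID3 (0.78 ± 0.28) came next, with edgeR adjusted p of 2.62e-05, 0.0185 and 0.0498. SMAD7 (0.62 ± 0.14) and SMAD6 (0.43 ± 0.15) differed least, at edgeR adjusted p of 0.00226 and 0.044. The call of ID3 was lost in 6 of 8 fits that left out 1 of these libraries, kept only without DE(a)-24h or APS-24h replicate 1. That of SMAD6 was lost without DE(a)-24h replicate 2 (0.159), APS-24h replicate 1 (0.168), MPS-24h replicate 2 (0.152) or PPS-24h replicate 2 (0.157), and that of ID1 without DE(a)-24h or APS-24h replicate 2 (0.0921 and 0.0722).

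On day 2 the members were highest in LM, with MSX1 as the exception. Averaged over the 4 day 1 treatments, all 9 members were higher in LM than in DE(b), against 19.8% of all genes higher and 39.6% called in either direction. The median log2 difference of the members was 3.81, against 0.02 over all genes. After PPS taken alone, MSX1 was not higher in LM, at 53.1 and 77.0 CPM against 76.7 and 69.3 CPM in DE(b). Against PM, 8 members were higher in LM and 1, MSX1, was lower, where 21.0% of all genes were higher and 21.0% lower, 42.0% in all. The libraries of LM lay above every library of DE(b) for 7 of 9 members (4.53% of 14647 genes) and above every library of PM for 8 of 9 (5.71%). All calls in both comparisons held in each of the 16 fits that left out 1 of their libraries.

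**Figure D2:**
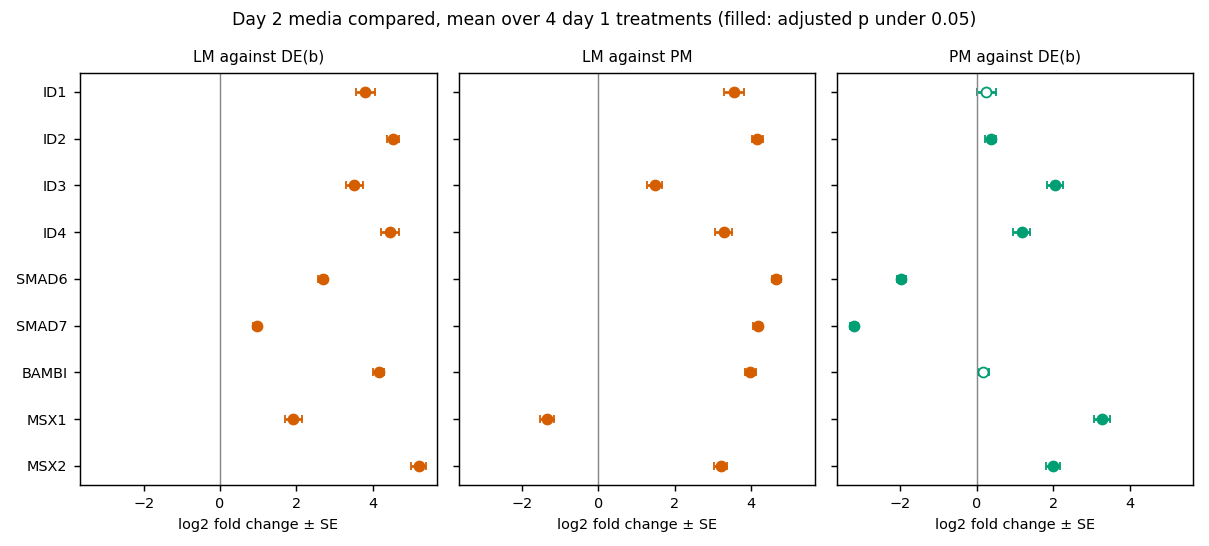
Log2 fold change of each gene between day 2 media, averaged over the 4 day 1 treatments, with bars of 1 SE; filled points passed an adjusted p of 0.05. The 9 genes are higher in LM than in DE(b), MSX1 alone is lower in LM than in PM, and SMAD6 and SMAD7 are lower in PM than in DE(b).

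Each of the ID genes was higher in LM than in DE(b) or PM. Over the 8 libraries of each medium, ID2 ranged from 219.5 to 472 CPM in LM (median 267), from 6.73 to 31.9 CPM in DE(b) (median 13.1) and from 11.5 to 25.8 CPM in PM (median 17.6). LM lay above both other media with no overlap, by 4.53 ± 0.15 and 4.16 ± 0.15 on the log2 scale (edgeR adjusted p = 3.81e-16 and 8.98e-16). ID1 ranged from 85.9 to 363 CPM in LM, 6.57 to 19.4 CPM in DE(b) and 3.29 to 53.6 CPM in PM, and ID4 from 52.4 to 238 CPM, 1.77 to 27.6 CPM and 3.24 to 37.9 CPM. In DE(b) and PM, ID1 mostly fell below its level in undifferentiated cells, by 2.04 ± 0.49 to 2.93 ± 0.51 in the 4 DE(b) conditions and by 1.30 ± 0.47 to 3.27 ± 0.51 in PM after DE(a), APS or MPS.

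In PM, ID3 stood around or above its control level. It ranged from 43.6 to 182 CPM in PM (median 102), 11.4 to 48.2 CPM in DE(b) (median 26.3) and 184 to 496 CPM in LM (median 304), around a control of 78.1 and 58.4 CPM. PM lay above DE(b) by 2.04 ± 0.20 (edgeR adjusted p = 2.73e-08), with overlap by the PPS-PM library of replicate 2. ID4 was also higher in PM than in DE(b), by 1.18 ± 0.23, while ID1 (0.25 ± 0.25, edgeR adjusted p = 0.449) did not differ by this test. ID2 was higher by 0.36 ± 0.14 (edgeR adjusted p = 0.0354), a call lost in 9 of 16 fits that left out 1 library, at adjusted p of up to 0.106.

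SMAD6 reached its highest level in LM and SMAD7 its lowest in PM. SMAD6 ranged from 230 to 706 CPM in LM (median 526), 52.9 to 89.3 CPM in DE(b) (median 70.4) and 12.3 to 26.3 CPM in PM (median 20.2), so that the 3 media did not overlap. LM exceeded PM by 4.66 ± 0.12 (edgeR adjusted p = 5.15e-17), and PM against DE(b) gave -1.98 ± 0.11 (1.58e-12). Every DE(b) library, in which the medium held the BMP receptor inhibitor, also lay above the control levels of 6.34 and 5.27 CPM. SMAD7 ranged from 74.5 to 102 CPM in LM (median 85.6), 29.1 to 78.2 CPM in DE(b) (median 44.9) and 2.69 to 8.61 CPM in PM (median 5.31). In all 4 PM conditions it fell below control, by 1.91 ± 0.21 (PPS) to 3.37 ± 0.23 (DE(a)), at edgeR adjusted p of at most 2.11e-07. SMAD7 was lower in PM than in DE(b) by -3.21 ± 0.11 (edgeR adjusted p = 6.12e-16) and higher in LM than in DE(b) by 0.96 ± 0.10 (3.83e-08). BAMBI ranged from 454 to 863 CPM in LM, 16.7 to 117 CPM in DE(b) and 28.7 to 68.2 CPM in PM, around 26.5 and 22.7 CPM in control.

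PM and DE(b) both hold LDN but differ in activin, A8301, bFGF and, by parts of the paper's account, CHIR. Members differed between them in both directions. In PM against DE(b), 5 members were higher (ID2, ID3, ID4, MSX1 and MSX2) and 2 lower (SMAD6 and SMAD7), where 21.6% of all genes were higher, 21.4% lower and 43.0% called. In every PM library SMAD6 and SMAD7 lay below every DE(b) library (5.95% of 14647 genes did so), and MSX1 lay above (7.39%).

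MSX1 and MSX2 parted on day 2. MSX2 ranged from 121 to 206 CPM in LM (median 162), 9.17 to 45.4 CPM in PM (median 16.9) and 0.772 to 31.6 CPM in DE(b) (median 5.29), and LM lay above both with no overlap. MSX1 ranged from 93.7 to 129.6 CPM in PM (median 110.3), 5.82 to 86.2 CPM in LM (median 53.5) and 0.698 to 76.7 CPM in DE(b) (median 20.8). Every LM library lay below every PM library for MSX1, as for 7.49% of 14647 genes. The difference was -1.35 ± 0.18 (edgeR adjusted p = 2.79e-06), while MSX2 was 3.21 ± 0.17 higher in LM (8.71e-13). In the separate comparisons MSX1 was lower in LM than in PM after DE(a) (-3.40 ± 0.40, edgeR adjusted p = 2.03e-06), and did not pass after APS (-0.72 ± 0.36, 0.182), MPS (-0.65 ± 0.36, 0.26) or PPS (-0.63 ± 0.36, 0.24). In LM, replicate 2 of MSX1 was higher than replicate 1 in 4 of 4 conditions, with a median ratio of 1.95.

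**Figure D3:**
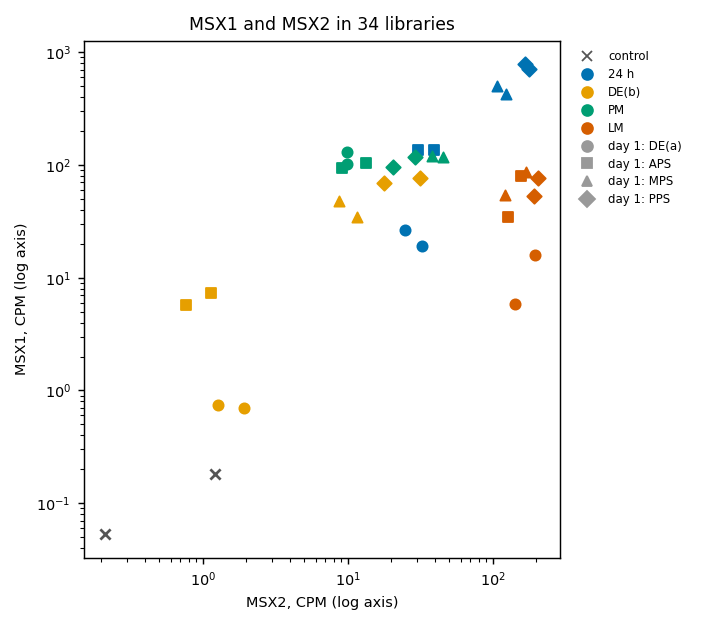
MSX1 against MSX2 in CPM on log axes in 34 libraries, colored by medium and shaped by day 1 treatment. LM libraries have MSX2 at 121 CPM or more with MSX1 at 86.2 CPM or less, PM libraries have MSX1 between 93.7 and 129.6 CPM, and in DE(b) both genes are higher after MPS and PPS than after DE(a) and APS.

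Markers of amnion, cells known to arise beside lateral mesoderm under BMP, were as a sum also higher in LM than in DE(b) and PM. The summed level of TFAP2A, TFAP2B, GATA3, ISL1, GABRP, VTCN1 and KRT7 was 79.2 to 473 CPM in LM, 132 and 165 CPM in PPS-24h and 59.1 and 68.4 CPM in MPS-24h. It was at most 25.1 CPM in DE(b), 13.8 CPM in PM and 14.5 CPM in the other 24 h libraries and control. Within LM the sum was lowest in MPS-LM (79.2 and 127 CPM) and APS-LM (91.3 and 106 CPM). It was 232 and 299 CPM in DE(a)-LM and 342 and 473 CPM in PPS-LM. Members differed in their order within LM. By mean level MSX2 was highest in PPS-LM and next in DE(a)-LM, as the sum was, though its libraries overlapped between conditions. SMAD6 was highest in APS-LM and lowest in PPS-LM. Only 4 of these 7 genes reached a mean of 10 CPM in any condition. The paper also uses ISL1 as a marker of lateral mesoderm, so that a higher sum need not mean amnion cells. TFAP2A, GATA3 and ISL1 are also among the other genes that respond to BMP listed below. The part of these cells in the members' levels was not tested.

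The day 2 media were then compared with 24 h. In DE(b), 8 members fell and 1, SMAD6, rose, where 26.2% of all genes fell, 24.8% rose and 51.0% were called. In PM, 8 members fell and 0 rose, where 25.1% of all genes fell, 23.2% rose and 48.2% were called. In LM, 7 members rose and 1, MSX1, fell, where 27.4% of all genes rose, 28.6% fell and 56.0% were called. Libraries at 24 h lay above every DE(b) library for ID1, ID2 and ID3 (3 of 9 members; 4.87% of 14647 genes) and above every PM library for ID1, ID2, SMAD6, SMAD7 and BAMBI (5 of 9; 4.57%). LM libraries lay above every 24 h library for ID2, SMAD6 and BAMBI (3 of 9; 8.63%).

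**Figure D4:**
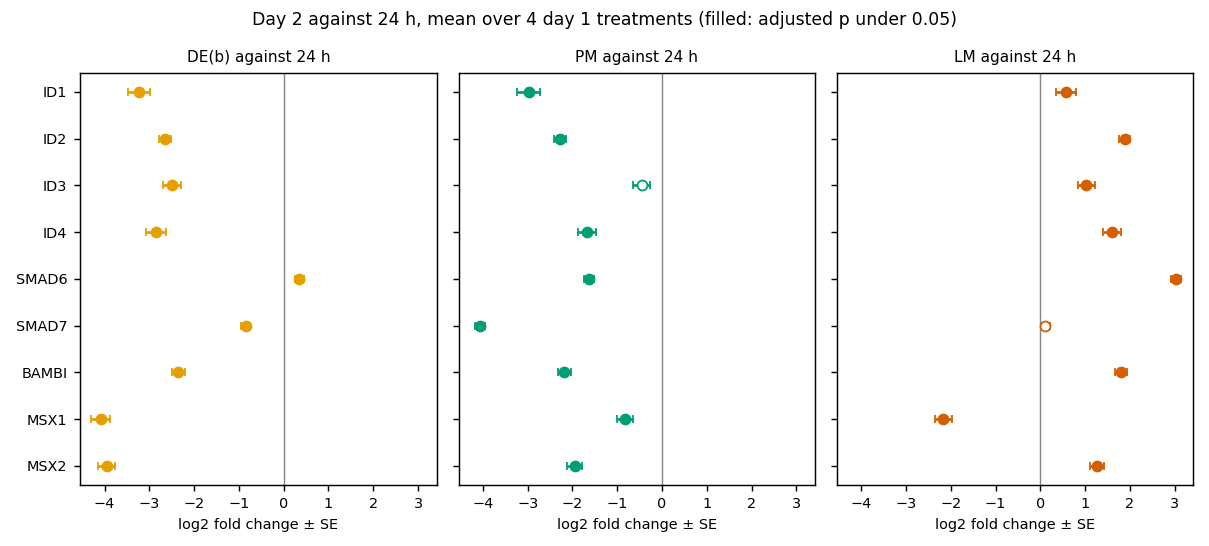
Log2 fold change of each gene on day 2 against 24 h, averaged over the 4 day 1 treatments, with bars of 1 SE; filled points passed an adjusted p of 0.05. SMAD6 is the member that is higher in DE(b), MSX1 is the member that is lower in LM, and SMAD7 has the largest fall in PM.

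In DE(b), MSX1 and MSX2 fell most, by -4.09 ± 0.22 and -3.95 ± 0.19, and SMAD7 least, by -0.85 ± 0.10. SMAD6 rose by 0.35 ± 0.10 (edgeR adjusted p = 0.0081). Taken by day 1 treatment, this SMAD6 rise passed in APS (0.67 ± 0.21, edgeR adjusted p = 0.0188) and not in DE(a), MPS or PPS, where the values were 0.31, 0.32 and 0.10. In PM, SMAD7 fell most, by -4.06 ± 0.11 (edgeR adjusted p = 1.26e-16), and ID3 did not pass (-0.45 ± 0.19, 0.06). ID3 passed, however, without DE(a)-24h or APS-24h replicate 2 or without the replicate 1 library of any of the 4 PM conditions, with adjusted p of 0.0152 to 0.0423. MSX1 moved in opposite directions in PM after DE(a) and after PPS. It rose from 19.1 and 26.6 CPM to 103 and 129.6 CPM after DE(a) (2.22 ± 0.38, edgeR adjusted p = 0.000169) and fell from 712 and 783 CPM to 117 and 96.3 CPM after PPS (-2.84 ± 0.38, 1.35e-05).

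In LM, SMAD6 rose most over 24 h, by 3.03 ± 0.11 (edgeR adjusted p = 3.48e-15), followed by ID2 with 1.88 ± 0.13 and BAMBI with 1.80 ± 0.14. SMAD7 did not pass (0.11 ± 0.10, 0.343), its LM and 24 h ranges overlapping widely. ID1 rose by 0.58 ± 0.23 (edgeR adjusted p = 0.0365), a call lost in 9 of 16 fits without 1 library, at adjusted p of up to 0.0921. The values also differed by day 1 treatment. After DE(a), LM raised ID4 by 3.37 ± 0.44, ID3 by 1.74 ± 0.40 and ID1 by 1.69 ± 0.47 over 24 h, with edgeR adjusted p of 3.98e-06, 0.00187 and 0.00777. After PPS the values were -0.04 ± 0.40, -0.25 ± 0.39 and -0.10 ± 0.45, and none passed. The difference between these separate comparisons was not tested.

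Differences between the day 1 treatments were also seen on day 2, for some members in the direction opposite to 24 h. The contrast of MPS and PPS with DE(a) and APS was repeated within each medium. In DE(b), 6 members were higher and 1, SMAD7, lower (7.91% of all genes higher, 8.15% lower, 16.1% called). In PM, 6 were higher and 0 lower (3.22% higher, 4.86% lower, 8.09% called). In LM, 2 were higher and 3 lower (7.58% higher, 9.40% lower). For the median member the log2 difference came to 1.00 after DE(b), 0.67 after PM and 0.17 after LM, against 0.00, -0.01 and -0.02 over all genes.

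**Figure D5:**
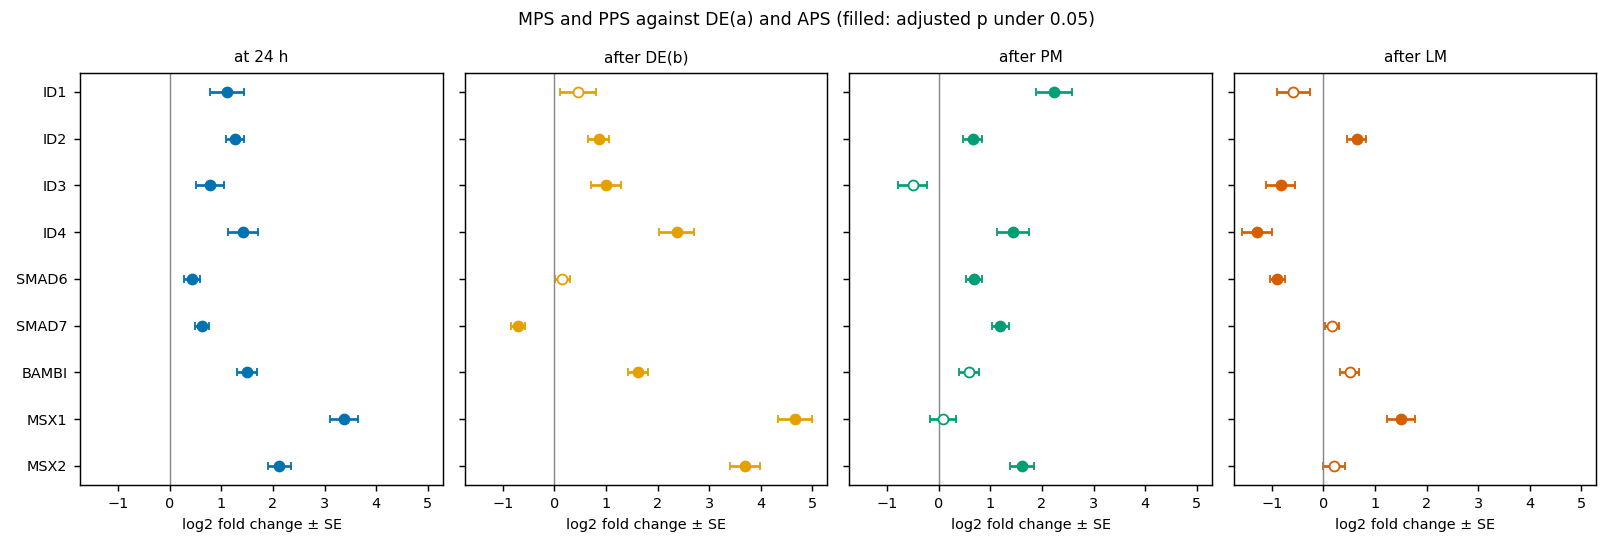
Log2 difference of each gene between day 1 treatments with BMP4 (MPS and PPS) and without (DE(a) and APS), at 24 h and after each day 2 medium, with bars of 1 SE; filled points passed an adjusted p of 0.05. MSX1 and MSX2 differ most in DE(b), ID1 has its largest difference in PM, and the filled points below 0 in LM are ID3, ID4 and SMAD6.

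In DE(b), which held LDN, the MSX genes had the largest differences of the members. MSX1 stood at 0.741 and 0.698 CPM after DE(a), 5.78 and 7.36 CPM after APS, 34.2 and 48.1 CPM after MPS and 76.7 and 69.3 CPM after PPS. The 4 groups did not overlap and stood in this order, and the contrast was 4.67 ± 0.33 (edgeR adjusted p = 3.91e-09). MSX2 stood at 1.28 and 1.92 CPM after DE(a), 0.772 and 1.14 CPM after APS, 11.5 and 8.66 CPM after MPS and 31.6 and 17.7 CPM after PPS (3.69 ± 0.29, edgeR adjusted p = 1.18e-08). ID4 (2.37 ± 0.35) and BAMBI (1.62 ± 0.20) were higher too, with edgeR adjusted p of 3.88e-05 and 4.42e-06. ID4 was above control in PPS-DE(b) (1.91 ± 0.43, edgeR adjusted p = 0.00139), and BAMBI was above it after both MPS and PPS. SMAD7 ran the other way, from 55.3 and 78.2 CPM after DE(a) to 47.7 and 49.99 CPM after APS, 38.7 and 42.2 CPM after MPS and 30.5 and 29.1 CPM after PPS (-0.70 ± 0.14, edgeR adjusted p = 0.00103). ID2 (0.86 ± 0.20) was lost without MPS-DE(b) replicate 1 (edgeR adjusted p = 0.0601). ID3 (1.00 ± 0.29) was lost without replicate 2 of DE(a)-DE(b) (0.11) or APS-DE(b) (0.0948) or replicate 1 of MPS-DE(b) (0.0858) or PPS-DE(b) (0.0709). Marker levels moved along this order as well, the endoderm markers SOX17, FOXA2 and CXCR4 summing to 585 and 719 CPM after DE(a) and 124 and 252 CPM after PPS, and their part was not tested. Of the 13 BMP ligands and antagonists counted below, only the BMP4 gene is given here. It stood at 16.9 and 13.3 CPM in DE(a)-DE(b) and at 556 and 430.1 CPM in PPS-DE(b). Its part in the members' levels was not tested.

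In PM the members that kept a difference were ID1 (2.23 ± 0.35, edgeR adjusted p = 0.000224), MSX2 (1.62 ± 0.23, 8.66e-05), ID4 (1.44 ± 0.30, 0.0036), SMAD7 (1.19 ± 0.16, 3.41e-05), SMAD6 (0.67 ± 0.15, 0.00632) and ID2 (0.65 ± 0.19, 0.0337). MSX1 (0.09 ± 0.25, 0.928) did not pass, and its 8 PM libraries spanned only 93.7 to 129.6 CPM. SMAD7 in PM stood at 3.28 and 2.69 CPM after DE(a) and at 7.71 and 8.61 CPM after PPS, the reverse of its order in DE(b). ID1 and ID4 were lower in replicate 2 than in replicate 1 in 4 of 4 PM conditions, with median ratios of 0.386 and 0.452, so that the difference stands on levels of 4.10 to 53.6 CPM for ID1 after DE(a) and PPS. ID2 was lost without replicate 2 of DE(a)-PM (0.123), either replicate of APS-PM (0.0754 and 0.0965) or replicate 1 of MPS-PM (0.161) or PPS-PM (0.128). Fitted on the PM libraries alone, only 3 members were called, SMAD6, SMAD7 and MSX2, since ID1 (edgeR adjusted p = 0.0604), ID2 (0.121) and ID4 (0.164) no longer passed.

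In LM, ID3, ID4 and SMAD6 were lower after the day 1 media with BMP4. ID4 stood at 238 and 211 CPM after DE(a), 139 and 113 CPM after APS, 52.4 and 58.6 CPM after MPS and 71.1 and 83.3 CPM after PPS (-1.28 ± 0.28, edgeR adjusted p = 0.00244). SMAD6 stood at 598 and 658 CPM after DE(a), 706 and 641 CPM after APS, 394 and 454 CPM after MPS and 229.7 and 291 CPM after PPS (-0.89 ± 0.15, 0.00012). ID3 (-0.83 ± 0.28, 0.041) was lower too, from 496 and 403 CPM after DE(a) to 187 and 184 CPM after PPS. That call was lost in 7 of 8 fits without 1 library and kept only without APS-LM replicate 1. MSX1 (1.50 ± 0.27, 0.000281) and ID2 (0.64 ± 0.18, 0.0144) were higher, and ID2 was lost without APS-LM replicate 1 (0.0769), MPS-LM replicate 2 (0.0745) or PPS-LM replicate 1 (0.0632). Without either of the latter libraries 3 members were called in place of 5, ID3 being lost as well. MSX1 in LM stood at 5.82 and 15.8 CPM after DE(a) and 34.5 and 79.4 CPM after APS. It stood at 53.9 and 86.2 CPM after MPS and 53.1 and 77.0 CPM after PPS. The APS range overlapped those of MPS and PPS, while both DE(a) libraries lay below every other LM library. MSX2 (0.21 ± 0.22, 0.622), SMAD7 (0.17 ± 0.14, 0.471) and BAMBI (0.51 ± 0.19, 0.0661) did not pass in edgeR.

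Whether the day 1 difference itself depended on the medium was tested as an interaction. Between LM and DE(b), 7 members were called, 6 with a difference smaller or more negative in LM and 1, SMAD7, with a more positive one (5.18% and 3.54% of all genes, 8.72% called). Between LM and PM, 6 members were called, 5 more negative in LM and 1, MSX1, more positive (3.86% and 3.89%, 7.75% called). Over the 12 conditions of day 2, the interaction of day 1 and day 2 treatment was called for 8 of 9 members, against 13.1% of all genes, with ID2 as the exception (edgeR adjusted p = 0.123). Of these, ID3 (0.0979) and BAMBI (0.0522) were lost without PPS-DE(b) replicate 1.

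Each member's conditions were put in order of mean level, and the 16 steps between neighbors were compared by the same edgeR test. The order came from these same data, so neighbors are close by construction and the p-values do not allow for it. A step that did not pass therefore says little. For ID1, ID3 and ID4, 0 of 16 steps passed, although the ends of each order differed by many times. ID2 had 3 steps, between LM and PPS-24h, between MPS-24h and DE(a)-24h and between APS-24h and PPS-DE(b). SMAD6 had 4, setting apart PPS-LM, the other 3 LM conditions, the PM conditions and control. SMAD7 had 1, between PPS-DE(b) and PPS-PM (1.94, edgeR adjusted p = 5.74e-07), and BAMBI had 1, between PPS-24h and APS-24h (1.04, 0.0101). MSX1 had 3 and MSX2 had 3, among them MPS-24h over APS-24h for MSX1 (1.80, 0.00637) and DE(a)-PM over DE(a)-DE(b) for MSX2 (2.59, 5.22e-05).

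The members' profiles resembled each other to different degrees. Over the 17 condition means of log2(CPM + 1), which share the depth of their libraries, the highest Pearson correlation between members was 0.981 for ID2 with BAMBI, and ID4 correlated at 0.919 with ID2 and 0.910 with MSX2. The lowest were -0.113 for SMAD7 with MSX1 and 0.055 for SMAD6 with MSX1, and MSX1 with MSX2 gave 0.662. Among the 12263 genes that averaged 10 CPM or more in some condition, the profile most like that of ID2 and of BAMBI was LCP1 (0.964 and 0.970), and those most like MSX2 were TBX3 (0.928) and FOXF1 (0.911). ID1 and ID4 were both closest to FAM155A (0.953 and 0.936), SMAD6 to ZNF611 (0.951), SMAD7 to PIEZO1 (0.954), MSX1 to SMYD2 (0.923) and ID3 to ACAT2 (0.895).

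Other genes of the pathway were counted from lists. These were chosen with earlier results of these data known, so that the counts describe the lists and are not independent support. The shares of all genes called higher and lower were 19.8% and 19.8% in LM against DE(b). They were 21.0% and 21.0% in LM against PM and 21.6% and 21.4% in PM against DE(b). Of 13 genes of BMP signal transduction (receptors, SMAD1, SMAD4, SMAD5, SMAD9, SMURF1, SMURF2 and SKI), 3 were higher and 5 lower in LM than in DE(b), with a median of -0.13 on the log2 scale. Among them SMAD9, itself induced by BMP, was higher in LM by 4.94 ± 0.14 (edgeR adjusted p = 8.7e-17) and SMAD1 by 1.14 ± 0.09 (1.42e-09), while SMAD5 was lower (-0.49 ± 0.07, 3.61e-06). Of 10 other genes that respond to BMP (SMAD9, ATOH8, HEY1, GATA2, GATA3, TFAP2A, HAND1, ISL1, TBX3 and DLX5), 9 were higher in LM than in DE(b) and 0 lower, and 10 were higher at 24 h in MPS and PPS than in DE(a) and APS, where 10.2% of all genes were. In LM against PM 9 of these were higher and 1, ATOH8, was lower (-2.19 ± 0.16, edgeR adjusted p = 2.17e-10), the same direction as MSX1. Of 13 BMP ligands and antagonists, 8 were higher and 4 lower in LM than in DE(b). NOG, which encodes the BMP antagonist noggin, was at 29.6 to 52.6 CPM in LM and at most 3.96 CPM in DE(b) and 1.14 CPM in PM. The E proteins that ID proteins bind, TCF3, TCF4 and TCF12, were all lower in LM than in PM, by -0.54 ± 0.09, -0.41 ± 0.16 and -0.23 ± 0.07, while against DE(b) TCF4 was higher in LM by 1.29 ± 0.16 (edgeR adjusted p = 8.98e-07), TCF3 was lower (-0.25 ± 0.09, 0.0346) and TCF12 did not pass (-0.06 ± 0.07, 0.584). The 7 genes of the activin and Nodal response were lower in LM and in PM than in DE(b), with 7 of 7 called in each, and all 8 Wnt response genes (AXIN2, LEF1, SP5, NKD1, RNF43, ZNRF3, NOTUM and TCF7) were lower in LM than in PM.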

How the data were processed

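Bulk RNA sequencing of 34 ESI017 libraries was analysed from 2 deposited tables, 1 for each replicate. Per the labels and the file values, the authors deposited estimated counts from Salmon 1.10.2 (hg38), summed per gene, with no depth normalization. R 4.4.2 is also named in the submitters' processing notes. Samples were grouped by their labels. Library totals were 15522780 to 23439799. Here the estimated counts were rounded and tested in edgeR 4.0.16 (R 4.3.3), with TMM scaling, filterByExpr by condition, 1 mean per condition and Benjamini-Hochberg adjustment over 17895 genes (common dispersion 0.06105, 17 residual degrees of freedom). The SE is the log2 fold change divided by the root of F. CPM used library totals. The script was tested on simulated data. Intervals and the floor of 3 counts cover counting error only. No label ties replicates to separate thaws or days, so that p-values measure the spread between these libraries. Alternatives were RLE scaling, no filter, a replicate block, only the libraries compared, DESeq2 1.42.0 and leaving out each library, which kept the genes and dispersion trend of the whole data.

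The members were given by name, all 9 are described, and other genes came from listed pathways or from the 3 genes most like each member, by Pearson correlation of log2(CPM + 1) over 17 conditions. Members and lists were chosen with earlier results of these data known. Deviations between replicates correlated at -0.196 to 0.569 (median 0.162) over 136 pairs of conditions, of which 96 were above 0.1.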

Additional observations from a re-analysis of the deposited data

Results flagged for a closer look

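The difference between the day 1 media with BMP4 (MPS and PPS) and without (DE(a) and APS), which also differ in CHIR, activin and bFGF, changed with the day 2 medium by a test of the interaction in edgeR. In LM relative to DE(b) the log2 difference was lower for ID3 (-1.83, edgeR adjusted p = 0.00358), ID4 (-3.65, 7.54e-06), SMAD6 (-1.04, 0.00154), BAMBI (-1.11, 0.0095), MSX1 (-3.16, 1.97e-05) and MSX2 (-3.48, 1.3e-06). It was higher for SMAD7 (0.87, 0.00442), which in DE(b) was lower after MPS and PPS than after DE(a) and APS.

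In LM relative to PM it was lower for ID1 (-2.81, edgeR adjusted p = 0.000504), ID4 (-2.72, 0.000165), SMAD6 (-1.57, 4.38e-05), SMAD7 (-1.02, 0.00306) and MSX2 (-1.41, 0.007), and higher for MSX1 (1.42, 0.0172). In LM, MSX1 stood at 5.82 and 15.8 CPM after DE(a), below every other LM library, and its APS range overlapped those of MPS and PPS. The MSX1 call was lost without MPS-LM replicate 2 (0.0627) or PPS-LM replicate 2 (0.0502), and in a fit of the compared libraries alone (0.0961).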

How the results depend on the processing

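The counts of members called kept within 1.5 times under RLE scaling, DESeq2 and the replicate block. With no filter on low counts, 2 members in place of 1 differed between APS and DE(a), 8 in place of 4 between MPS and APS and 3 in place of 0 between PPS and MPS. In fits of the compared libraries alone, 2 members were called between MPS and APS, and 3 in place of 6 for the contrast of day 1 media with and without BMP4 in PM. Leaving out 1 library gave 0 to 1 calls for APS against DE(a), 0 to 3 for MPS against APS and 3 to 5 for that contrast in LM. The cause was not tested.

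Values that changed sign were all uncalled. The ID2 interaction of LM with PM was -0.01, and 0.003 with RLE, 0.010 with no filter and 0.003 with DESeq2. Without 1 library, values ran from -0.152 to 0.259 for ID1 in APS against control. For APS against DE(a) they ran from -0.925 to 0.023 for ID1, -0.711 to 0.113 for ID3, -0.193 to 0.333 for ID4 and -0.003 to 0.274 for SMAD7. For PPS against MPS they ran from -0.29 to 0.002 for SMAD6 and -0.236 to 0.02 for SMAD7, and for PM against DE(b) from -0.008 to 0.405 for ID1. For the interactions they ran from -0.417 to 0.085 for ID2 in LM against DE(b), and from -0.142 to 0.123 for ID2 and -0.197 to 0.071 for BAMBI in LM against PM.

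The labels do not say that a replicate number marks a shared batch, and 96 of 136 pairs of conditions, not all, had replicate deviations correlated above 0.1, so that the numbers were not taken as pairs. With the replicate block, 8 members in place of 7 were called for DE(a)-24h against control, 9 in place of 8 for MPS-24h against control, for PM against 24 h and for the interaction over 12 conditions, 5 in place of 4 for MPS against APS, 7 in place of 6 for the contrast of day 1 media in PM and 6 in place of 5 in LM, and no call was lost. The calls gained were ID3 in DE(a)-24h and ID1 in MPS-24h against control, SMAD6 in MPS against APS, ID3 in PM against 24 h, BAMBI in the contrast of day 1 media in PM and LM, and ID2 in the interaction over 12 conditions. With 2 libraries per condition, single-condition differences near the threshold depend on 1 library. MSX1 and MSX2 in control rest on 5 and 31 counts, so that their folds against control are imprecise.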

Other observations

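In PM, replicate 2 was below replicate 1 in 4 of 4 conditions for ID1 (median ratio 0.386), ID2 (0.712), ID3 (0.536) and ID4 (0.452), while SMAD6 was above it in 4 of 4 (1.19). In DE(b), replicate 2 was likewise lower in 4 of 4 conditions for ID1 (0.60), ID2 (0.72), ID3 (0.69) and BAMBI (0.71), and in 1 or 2 of 4 for the others. At 24 h it was lower in 4 of 4 for ID3, BAMBI and MSX2 and in 0 of 4 for MSX1. ID3 was lower in replicate 2 in 15 of 16 treated conditions. In LM the median ratios of the ID genes were between 0.965 and 1.02.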
